A study of Mus musculus with 16 samples.

Results

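Myelin and oligodendrocyte genes were followed in RNA of the mouse optic nerve head as 9 genes: Mbp, Mobp, Mag, Mog, Cnp, Mal, Cldn11, Opalin and Sox10. They were found by exact gene symbol among the 23337 genes of the raw count table, all 9 were present, and all 9 were among the 14541 genes with enough counts to be tested. The study compared 4 groups of wild-type C57BL/6 mice: naïve mice of 13 weeks ("young naïve"), naïve mice of 40 weeks ("aged"), and 13-week mice whose right anterior chamber had received either saline or microbeads 4 weeks earlier ("saline-injected" and "microbead-injected"). Microbeads hinder the drainage of aqueous humor and thereby raise IOP. Each group had 4 libraries. Each library pooled the unmyelinated parts of the right optic nerves of 4 mice, 2 male and 2 female. The spread between libraries is thus a spread between pools. The study set aside aged library 2 and saline library 4 after a principal component analysis, and values are given for the remaining 14 libraries with those of the 2 other libraries beside them.

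Myelin is the spiral of membrane that oligodendrocytes wrap around axons of the central nervous system. Axons of retinal ganglion cells run bare through the glial lamina and become myelinated behind it, and transcripts of myelin genes are known as markers of oligodendrocytes rather than of the laminar astrocytes. Within the sheath the proteins have separate places. Mbp and Mobp are basic proteins that lie between the cytoplasmic faces of compact myelin, Mag sits on the innermost wrap facing the axon, and Mog on the outermost surface. Cnp, a cyclic nucleotide phosphodiesterase, belongs to the non-compact parts, Mal is a proteolipid of lipid rafts and membrane sorting, Cldn11 is the claudin of the tight junctions between wraps, and Opalin is a glycoprotein of the oligodendrocyte membrane. Sox10 is the transcription factor of the lineage, also carried by Schwann cells, and drives many myelin genes through letters of the type ACAAAG or ACAATG.

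Promoter windows are shown for the member whose level differed most between aged and young nerves, Mobp, for the member that moved the other way, Cldn11, and for Opalin, the other member with more than 1 match. RefSeq windows on GRCm38.p6, from 250 bases before to 50 after a transcript start, were at hand for 7 of the 9 members, with 3 starts for Mag. Capitals mark ACAAAG or its reverse complement CTTTGT, each sequence running 5′ to 3′ on the strand of its gene.
Mobp, chr9:120149492-120149791, plus strand: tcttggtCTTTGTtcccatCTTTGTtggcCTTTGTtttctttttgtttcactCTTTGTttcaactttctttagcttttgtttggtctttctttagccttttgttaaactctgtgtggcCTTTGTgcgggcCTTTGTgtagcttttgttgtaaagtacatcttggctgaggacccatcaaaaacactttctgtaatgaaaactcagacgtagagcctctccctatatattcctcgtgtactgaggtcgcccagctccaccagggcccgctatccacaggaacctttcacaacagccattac
Cldn11, chr3:31149670-31149969, plus strand: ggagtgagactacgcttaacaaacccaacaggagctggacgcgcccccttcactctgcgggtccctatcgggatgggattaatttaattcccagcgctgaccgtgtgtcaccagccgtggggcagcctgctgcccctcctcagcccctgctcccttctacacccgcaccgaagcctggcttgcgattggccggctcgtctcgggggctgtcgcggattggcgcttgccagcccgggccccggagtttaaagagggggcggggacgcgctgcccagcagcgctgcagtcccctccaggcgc
Opalin, chr19:41077064-41077363, minus strand: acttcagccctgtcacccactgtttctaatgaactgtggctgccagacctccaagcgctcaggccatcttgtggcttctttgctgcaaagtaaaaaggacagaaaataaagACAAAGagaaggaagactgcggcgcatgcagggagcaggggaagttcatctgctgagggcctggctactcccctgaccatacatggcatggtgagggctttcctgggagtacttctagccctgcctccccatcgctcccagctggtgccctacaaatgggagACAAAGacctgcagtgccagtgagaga
The Mobp window held 6 matches of ACAAAG on either strand, all read as CTTTGT and all between 243 and 120 bases before the start. Only 3 of 32851 windows in the table held 5 or more, whereas 18.7% held at least 1. Opalin had 2 matches, Cnp and 2 of the Mag windows 1 each, and those of the 2 Mag windows are the same site because the windows overlap. No match lay in the windows of Cldn11, Mal and Mog. ACAATG, present in 12.6% of all windows, occurred in none of the member windows. The motifs do not overlap each other, and a match of letters does not show that a factor binds there.

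Library totals lay between 6213789 and 10726122 counts. Levels are given in CPM, counts scaled to the TMM-normalised library total, with the SD over libraries (young and microbead n = 4, aged and saline n = 3). Per kilobase of exon, the order of mean levels in young nerves was Mbp (1200 ± 111 CPM per kb), Cnp (187 ± 29.5), Mal (116 ± 8.34), Mobp (108 ± 4.95), Mag (68.9 ± 17.2), Mog (47.7 ± 9.91), Opalin (27.8 ± 7.30), Cldn11 (25.8 ± 1.22) and Sox10 (12.4 ± 2.83). Mal and Mobp, Mag and Mog, and Opalin and Cldn11 lay within their spread of each other. Mobp stood in place 4 in young, saline and microbead nerves and in place 7 in aged nerves (32.9 ± 9.41 CPM per kb), while Cldn11 stood in place 8 in young and saline nerves and in place 5 in aged and microbead nerves. The 9 genes together took 0.497% to 1.20% of the counts of a library, and Mbp gave 78.2% to 85.1% of that sum.

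**Figure D1:**
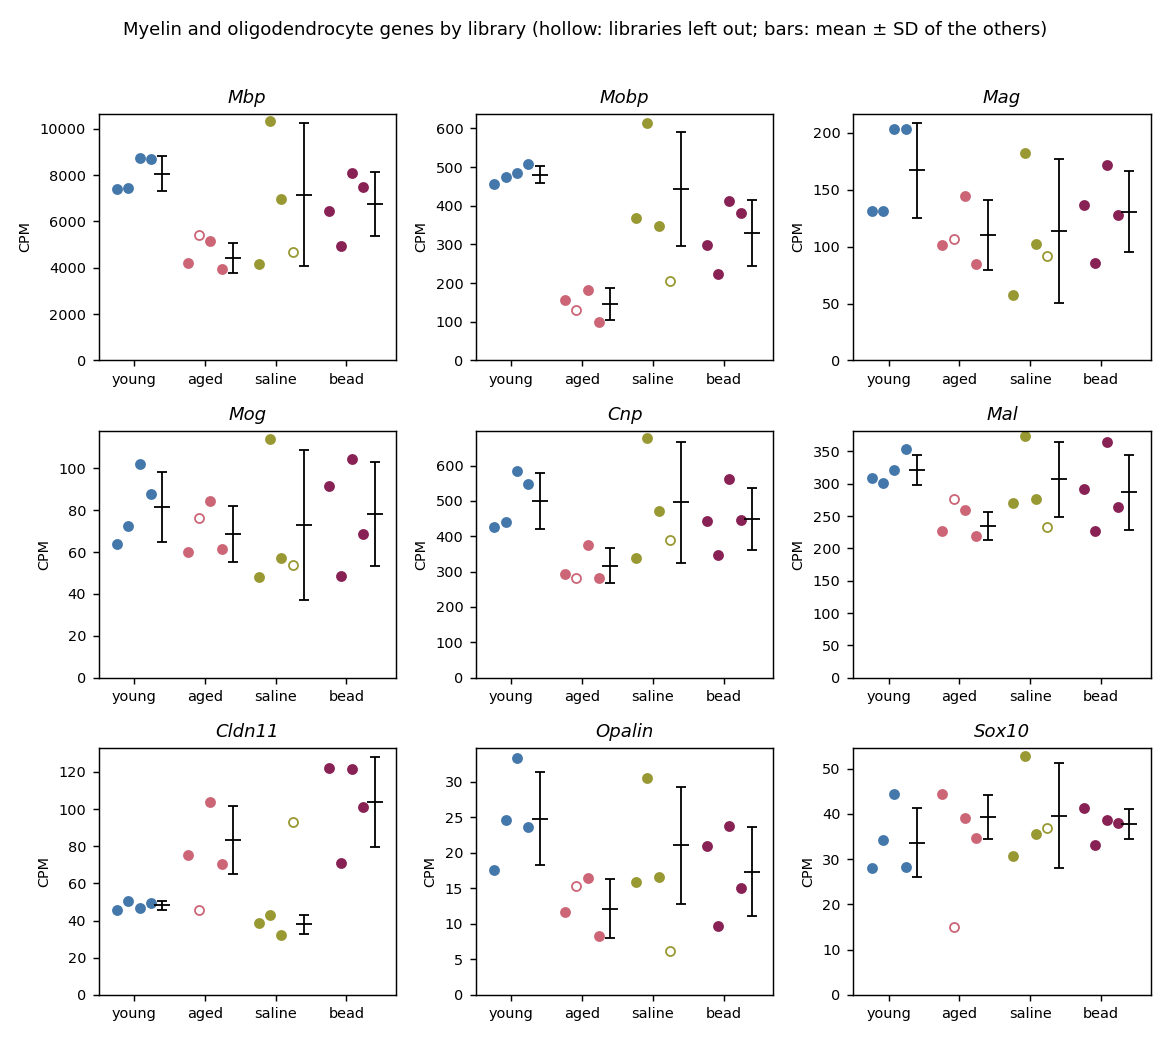
Level of each of the 9 genes in CPM on a linear axis from 0, with a point for every library in the order of its replicate number within the group, hollow for aged library 2 and saline library 4, and with the mean ± SD of the other libraries beside each group. Mobp in all 4 aged libraries lay below every other library, and Cldn11 was above 70 CPM in 3 aged, 1 saline and all 4 microbead libraries.

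The comparison of aged with young nerves asked what differs with age. Age was not all that set these libraries apart. Lars2, a mitochondrial leucyl-tRNA synthetase, was at 8570 to 9313 CPM in aged libraries 1, 3 and 4. It was at 131 to 213 CPM in young libraries and at 680 CPM in aged library 2. Aged library 4 also carried another library code. The study also lists a higher RNA concentration for every aged pool than for any young pool. The part of these differences was not tested. Mobp and Mbp were lower in aged nerves, Cldn11 was higher, and the other 6 members did not pass the test. To be called, a gene had to change by 1.5-fold or more with p below 0.01 in the edgeR quasi-likelihood test and an adjusted p below 0.05 (Benjamini-Hochberg over all 14541 genes). By this rule 1 member was higher and 2 were lower, where 15.1% of all tested genes were called higher and 11.4% lower. The median log2 fold change of the members was -0.60, beside 0.016 for all genes tested. The study identified the unmyelinated part of the nerve under a dissecting microscope. How much myelinated nerve each pool held is not given. In bulk RNA that amount, the number of oligodendrocytes and the RNA per oligodendrocyte cannot be told apart.

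Mobp was at 456, 474, 485 and 508 CPM in young libraries 1 to 4 and at 155, 183 and 101 CPM in aged libraries 1, 3 and 4, with 130 CPM in aged library 2. The groups were far apart, and the left-out aged library fell among the other aged ones. The log2 fold change was -1.72 ± 0.27 (SE), a 0.305-fold level, with an adjusted p of 0.000276 by the edgeR quasi-likelihood test, and with 16 libraries -1.76 (edgeR adjusted p = 0.000147). The call held without any of the 14 libraries in turn, over a range of -1.91 to -1.51.

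Mbp was at 7385, 7446, 8745 and 8673 CPM in young libraries 1 to 4 and at 4187, 5146 and 3940 CPM in aged libraries 1, 3 and 4, with 5397 CPM in aged library 2. All aged libraries lay below all young ones. The log2 fold change was -0.87 ± 0.26 (SE) with an edgeR adjusted p of 0.0137. The size was stable, from -0.99 to -0.79 when each library was left out, but p rose past 0.01 without young library 3, young library 4, aged library 1, aged library 4 or microbead library 1, the highest adjusted p of these fits being 0.0631.

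The fitted decrease of Mobp was the larger of these, and the ratio of the raw counts of both genes, which is free of any scaling between libraries, separated the groups. Young libraries had 5.55 to 6.36 Mobp counts per 100 Mbp counts and aged libraries 2.56 to 3.71, with 2.40 in aged library 2. Cnp and Mal did not share this: there were 5.76 to 6.69 Cnp counts per 100 Mbp counts in young and 7.03 to 7.28 in the 3 aged libraries, but 5.23 in aged library 2, and 3.68 to 4.18 Mal counts in young and 5.04 to 5.55 in all aged libraries. These ratios are descriptions with no test.

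Cldn11 was at 45.9, 50.8, 46.7 and 49.5 CPM in young libraries 1 to 4 and at 75.5, 104 and 70.2 CPM in aged libraries 1, 3 and 4. Aged library 2, at 45.6 CPM, was like the young ones. The log2 fold change was 0.79 ± 0.17 (SE, edgeR adjusted p = 0.00140) with 14 libraries and 0.61 with 16 (edgeR adjusted p = 0.114), so that the call rests on leaving aged library 2 out.

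The junction between called and not called ran through Cnp, Opalin and Mal, whose aged and young libraries did not overlap either. How many of all genes were apart in this way was not counted. With age 6 of 9 members and 8034 of 14541 genes had an unadjusted p under 0.05 in the edgeR test. Cnp was at 425 to 585 CPM in young and 282 to 375 CPM in aged libraries, aged library 2 included, with a log2 fold change of -0.66 (edgeR adjusted p = 0.0298). Opalin lay at 17.6 to 33.4 CPM in young and 8.25 to 16.5 CPM in aged libraries (log2 -1.02, edgeR adjusted p = 0.0317), and Mal at 301 to 354 against 219 to 259 CPM (log2 -0.45, edgeR adjusted p = 0.0148), with 15.4 and 277 CPM in aged library 2. Cnp and Opalin missed the limit on the unadjusted p, and Mal fell short of the minimum fold. Both Cnp and Opalin were called with DESeq2, in a fit of only the 7 aged and young libraries, and without saline library 2 or microbead library 2, which raised the count of called members from 3 to 5. Over all genes the fit without saline library 2 called 2207 higher and 1675 lower of 14731. Without microbead library 2 these counts were 2196 and 1662 of 14502. Cnp was called lower with 16 libraries too (edgeR adjusted p = 0.0115) and with the trend with gene length removed. Opalin was called in neither, at log2 -0.93 (edgeR adjusted p = 0.0634) and -0.68 (edgeR adjusted p = 0.135). Mal stayed under the minimum fold in these fits.

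Mag (131 to 204 CPM in young, 85.1 to 144 CPM in aged libraries), Mog (63.7 to 102 and 60.02 to 84.2 CPM) and Sox10 (28.0 to 44.3 and 34.7 to 44.4 CPM) overlapped between the groups. Their log2 fold changes were -0.60, -0.25 and 0.23 with edgeR adjusted p of 0.223, 0.577 and 0.318. The value of Sox10 turned to -0.017 with 16 libraries, since aged library 2 had only 15.0 CPM. Per Sox10 count there were 197 to 308 Mbp counts in young and 94.2 to 132 in the 3 kept aged libraries, but 360 in aged library 2, so this ratio depends on the choice of libraries.

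**Figure D2:**
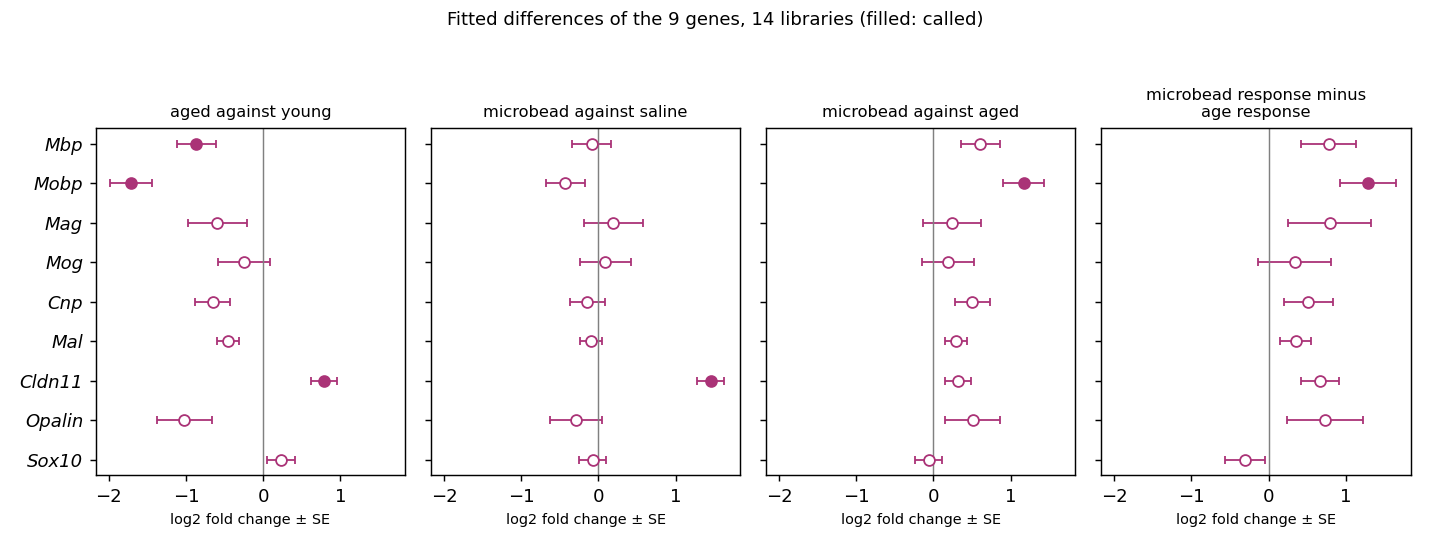
Fitted log2 fold change ± SE of the 9 genes in 4 comparisons of the 14 libraries, with filled points for genes that passed all thresholds. Mobp lay at -1.72 for age and Cldn11 at 1.45 for microbeads, whereas 7 of 9 genes lay within 0.30 of 0 for microbeads against saline.

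Markers of other cells also differed between aged and young libraries. Summed CPM of 11 astrocyte markers was 8452 to 9097 in the 3 aged and 11398 to 14048 in the young libraries, with 3 of 11 called lower and 2 higher. For 8 genes of retinal ganglion cell axons it was 108 to 127 and 169 to 277, with 4 called lower, among them the neurofilaments Nefl, Nefm and Nefh, and for 10 microglial genes 1184 to 1343 and 1841 to 2275, with 4 called lower. Endothelial genes (550 to 671 and 691 to 783, 3 of 8 lower), genes of pericytes and smooth muscle (654 to 725 and 946 to 1083, 3 of 7 lower and 1 higher) and genes of meningeal fibroblasts (8790 to 17079 and 25952 to 32016, 2 of 8 lower and 1 higher) had lower sums too. Genes of photoreceptors and pigment epithelium overlapped (1217 to 3289 and 1015 to 5085, none of 8 called). Schwann cell markers, which would mark myelin of peripheral nerve, summed to 222 to 261 CPM in aged and 188 to 241 CPM in young libraries with 2 of 10 called higher, and Pmp2, a fatty-acid-binding protein of peripheral myelin, lay between 0 and 0.242 CPM over all libraries. Aged library 2 went against the other aged libraries in the meningeal genes, at 44276 CPM, of which Ptgds gave 39510 CPM. Ptgds gave most of the meningeal sum in the other libraries too. With age Ptgds (log2 -1.32) and Igf2 (log2 -1.80) were called lower and Foxc1 (log2 0.85) higher. The part of these cells in the differences of the members was not tested.

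The comparison of microbead- with saline-injected nerves asked what differs after raised IOP. Cldn11 was higher and no other member was called, in a comparison where 9.39% of all tested genes were called higher and 3.06% lower. The median log2 fold change was -0.086 for the members and -0.0070 for all genes. The study lists a lower RNA concentration for each kept saline library than for any microbead library. The part of that difference was not tested.

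Cldn11 was at 38.6, 42.8 and 32.3 CPM in saline libraries 1 to 3 and at 122, 70.8, 122 and 101 CPM in microbead libraries 1 to 4. The groups were well apart, but saline library 4, left out by the study, had 93.1 CPM and lay among the microbead libraries. The log2 fold change of 1.45 ± 0.18 (SE, edgeR adjusted p = 3.82e-05) became 1.01 (edgeR adjusted p = 0.206) with 16 libraries, where the edgeR test called no gene at all although 2772 had an unadjusted p under 0.05. In the 14 libraries it stayed called without any of them, between 1.35 and 1.60.

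Over all 16 libraries the level of Cldn11 divided the libraries in the same way as that of Lars2, the mitochondrial leucyl-tRNA synthetase. Lars2 was at 4205 to 9313 CPM in the 8 libraries where Cldn11 exceeded 70 CPM, and at 90.5 to 680 CPM in the other 8, where Cldn11 was at 32.3 to 50.8 CPM. Aged library 2 and saline library 4 were thus on the side of the other group in both genes. The part of that division in the result was not tested. Cldn11 is also known from the arachnoid barrier of the meninges, whose fibroblast markers summed to 16286 to 32059 CPM in saline and 22683 to 33470 CPM in microbead libraries, with 1 of 8 called higher and 1 lower. Ptgds gave most of these sums, such as 28112 CPM in microbead library 4. Foxc1 was called higher (log2 0.72), at 105 to 133 CPM in saline libraries 1 to 3 and 178 to 225 CPM in microbead libraries. It was at 215 CPM in saline library 4. Lum was called lower (log2 -0.69). Of other markers, axonal genes summed to 182 to 197 CPM in saline and 120 to 165 CPM in microbead libraries (2 of 8 lower), microglial genes to 1848 to 2389 and 1517 to 1746 CPM (2 of 10 lower) and endothelial genes to 764 to 816 and 587 to 722 CPM (2 of 8 lower and 1 higher), while astrocyte genes overlapped (14046 to 14831 and 13274 to 17640 CPM). Their part in the result was not tested. Against Mbp in the same library, Cldn11 gave 0.414 to 0.924 counts per 100 Mbp counts in saline libraries 1 to 3 and 1.35 to 1.89 in microbead libraries, with 2.00 in saline library 4.

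**Figure D3:**
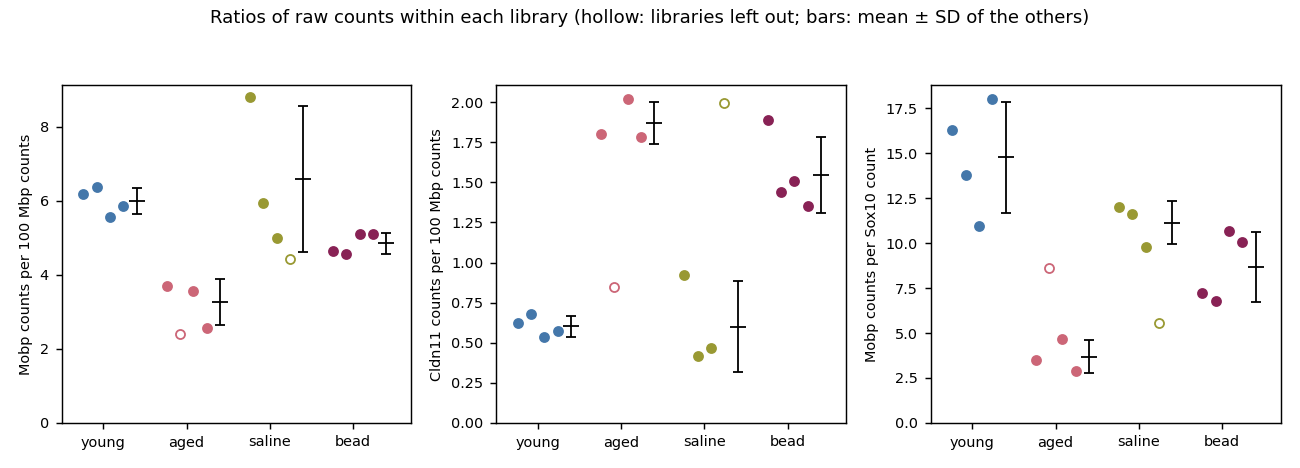
Ratios of raw counts within each library, on linear axes from 0, with a point per library (hollow for aged library 2 and saline library 4) and the mean ± SD of the others. The ratio of Mobp to Mbp was at most 3.71 per 100 in aged and at least 4.42 per 100 in all other libraries, and that of Cldn11 to Mbp was above 1.3 per 100 in the 3 kept aged libraries, saline library 4 and all microbead libraries.

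Mobp, the member with the largest age difference, was at 368, 613 and 348 CPM in saline libraries 1 to 3 and at 299, 224, 413 and 381 CPM in microbead libraries 1 to 4, with 206 CPM in saline library 4. The groups overlapped, and the log2 fold change was -0.43 ± 0.25 (SE, edgeR adjusted p = 0.225). Mbp was at 4179, 10326 and 6954 CPM in saline and 6460, 4921, 8081 and 7492 CPM in microbead libraries (log2 -0.086 ± 0.25 SE, edgeR adjusted p = 0.822). The saline libraries alone spanned a wider range than the microbead libraries did. The other 6 members had log2 fold changes between -0.29 (Opalin) and 0.19 (Mag), each with overlapping groups. Their standard errors, from 0.14 for Mal to 0.38 for Mag, set how small a change these pools could show.

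Saline-injected nerves were compared with young naïve nerves as a check on the injection itself. The edgeR test called no member, and none had an unadjusted p under 0.05. Of all tested genes that test called 0% higher and 0.00688% lower. DESeq2 called no member either, and over all 14541 genes it called 13 higher and 47 lower. Cldn11 was at 32.3 to 42.8 CPM in saline and 45.9 to 50.8 CPM in young libraries (log2 -0.35, edgeR adjusted p = 0.449), with 93.1 CPM in saline library 4. The largest difference was that of Mag, at 57.5, 182 and 102 CPM in saline libraries 1 to 3 (log2 -0.55 ± 0.38 SE, edgeR adjusted p = 0.589). No library code was shared by these groups, so that code and injection cannot be told apart here.

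In a direct comparison, microbead-injected nerves had more Mobp than aged nerves. The log2 fold change was 1.17 ± 0.27 (SE, edgeR adjusted p = 0.00799), the microbead libraries (224 to 413 CPM) did not overlap the aged ones (101 to 183 CPM), and 16 libraries gave 1.21 (edgeR adjusted p = 0.00462). No other member was called, where 6.07% of all genes were called higher and 4.78% lower. Mbp came nearest, with a log2 fold change of 0.61 ± 0.25 (SE, edgeR adjusted p = 0.0997), and was called in a fit of only these groups and without saline library 1 or saline library 2. Age and library code differ together between most of these libraries.

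The response to microbeads (against saline) was then set against the response to age (against young) within the same model. Mobp differed, with a log2 difference of 1.29 ± 0.37 (SE, edgeR adjusted p = 0.0465), in a test that called 4.97% of genes higher and 2.63% lower. The call was near the threshold. With each of the 14 libraries left out it held only without aged library 3, saline library 2 or microbead library 2, the edgeR adjusted p ranging from 0.0164 to 0.101. It was also lost without a filter on low counts (edgeR adjusted p = 0.0677) and with a replicate block (edgeR adjusted p = 0.110), and with 16 libraries the difference was 1.54 (edgeR adjusted p = 0.0244). For Cldn11, which was called higher in both comparisons, the difference was 0.67 (edgeR adjusted p = 0.0999), and for Mbp 0.78 (edgeR adjusted p = 0.190).

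**Figure D4:**
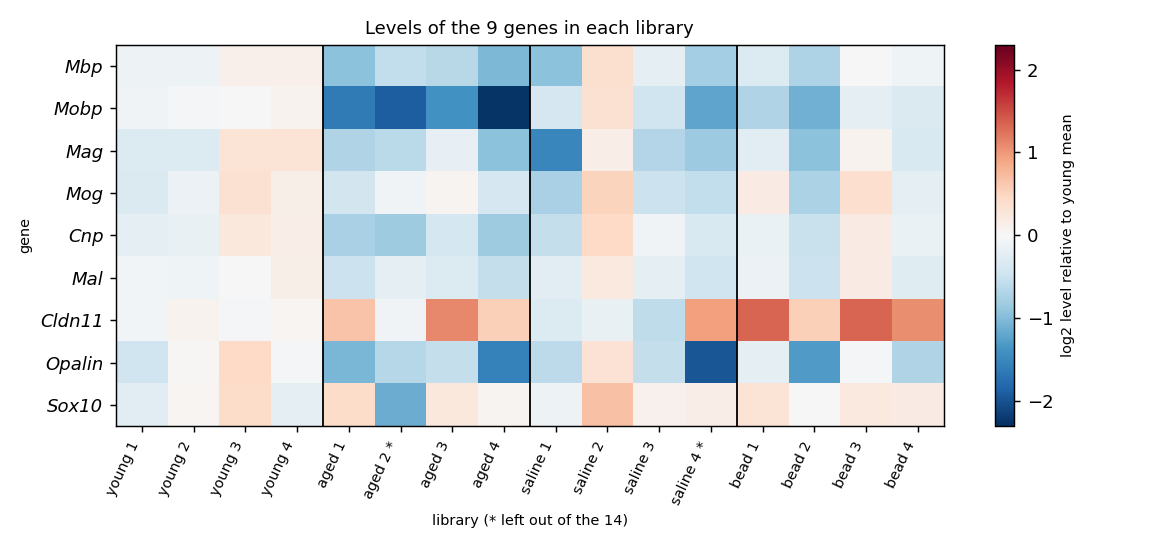
Level of each gene (vertical) in each of the 16 libraries (horizontal, grouped, asterisks on aged library 2 and saline library 4) as log2 relative to the mean of the young libraries, blue for lower and red for higher. Saline library 2 was high and microbead library 2 low across most genes, and Cldn11 was well above the young mean in 8 libraries.

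Libraries of the same group differed in most members at once. Saline library 2 had the highest level of all 9 members among saline libraries 1 to 3, and microbead library 2 the lowest level of all 9 among the microbead libraries. Microbead library 3 was highest in 7 members, aged library 3 was highest and aged library 4 lowest in 8 among the kept aged libraries, and in young nerves library 3 was highest in 6 and library 1 lowest in 7. The coefficient of variation had a median over the members of 15.8% in young, 19.7% in aged, 34.5% in saline and 23.2% in microbead nerves. Mag in saline nerves was the most variable (55.4%).

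After the group means were removed, each member was correlated with the mean of the other 8 over the 14 libraries. Pearson's r was highest for Mog (0.9596), Cnp (0.951) and Mag (0.939), and lowest for Cldn11 (0.708) and Sox10 (0.698). Over 16 libraries r fell to 0.072 for Cldn11 and 0.40 for Sox10 and was at least 0.72 for the others. Of 11494 other genes with a mean count of at least 50, those most like the mean of the members over the 14 libraries included Hcn2 (r = 0.981), Nkx6-2 (0.971), Gpr37 (0.965) and, with r between 0.9603 and 0.9620, Gal3st1, Tmeff2, Dbndd2, Tubb4a, Cntn2 and Hmgcs1. Over 16 libraries 4 of the 10 most alike, Nkx6-2, Gal3st1 and Tubb4a among them, were so again, while Hcn2 had r = 0.687. These values describe 14 or 16 pools, and all genes of a library share its depth and dissection.

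Other genes of the lineage were counted in 5 lists. Among 18 other myelin sheath genes, 2 were higher and none lower with age, and 6 were higher and none lower with microbeads. With each library's trend with gene length removed these counts were 2 and 1 with age and 3 and 1 with microbeads, while over all genes those for microbeads went from 1365 higher and 445 lower to 688 and 280. Among 10 genes of myelin lipid synthesis 1 was lower with age and none changed with microbeads, and of 11 oligodendrocyte transcription factors, 10 tested, none was called in either comparison. Of 12 genes of precursors and newly formed oligodendrocytes 1 was higher and 3 lower with age, and of 30 other genes of mature oligodendrocytes 2 were higher and 9 lower with age, 1 higher and 2 lower with microbeads. Of all genes tested 15.1% were called higher and 11.4% lower with age, and 9.39% and 3.06% with microbeads. A count such as 2 of 18 higher with age was near its share. The counts of 9 of 30 lower with age and 6 of 18 higher with microbeads were above theirs. The lists were chosen with earlier results of these data known, and no list was tested as a set. The median log2 fold changes with age were 0.061, -0.0054, 0.14, -0.44 and -0.52 in this order, beside 0.016 for all genes, and with 16 libraries none of these genes was called for microbeads against saline.

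Among the genes that the naming rule took from these lists, Bcas1, a gene of newly formed and myelinating oligodendrocytes, fell from 360 ± 29.0 to 136 ± 29.6 CPM with age (log2 -1.41, edgeR adjusted p = 0.000315). Gpr17, the receptor that marks differentiating precursors, fell as well, at a low level of 6.55 ± 1.15 against 2.46 ± 0.92 CPM (log2 -1.41, edgeR adjusted p = 0.000932). C1ql1 was lower (log2 -1.07), at 36.0 to 47.1 CPM in aged and 71.8 to 99.5 CPM in young libraries, but aged library 2 had 106 CPM and the call was lost with 16 libraries (edgeR adjusted p = 0.158). Cspg4, the NG2 proteoglycan that pericytes carry too, was higher (log2 0.83), at 23.6 to 30.8 against 13.3 to 17.98 CPM, with 15.1 CPM in aged library 2. Of the mature genes, the deacetylase Sirt2 fell from 235 ± 13.5 to 96.0 ± 20.6 CPM (log2 -1.29, edgeR adjusted p = 9.68e-07), and Apod (log2 -1.35), Cryab (log2 -1.11) and Ndrg1 (log2 -0.73) were lower, of which Apod and Cryab are also known from fibroblasts and astrocytes. In aged library 2 Apod (3695 CPM) and Cryab (829 CPM) were far above the other aged libraries, Cryab within the young range of 780 to 1063 CPM, and both were still called with 16 libraries (log2 -0.97 and -0.79). Efnb3 was higher with age (log2 0.97) and with microbeads (log2 1.07). Aged library 2 (44.2 CPM) lay between the young range of 28.0 to 36.5 CPM and the kept aged range of 55.0 to 77.6 CPM. Saline library 4 (39.6 CPM) lay within the microbead range of 38.7 to 68.8 CPM. With microbeads Cryab was lower (log2 -0.64), at 547 to 595 CPM against 771 to 1001 CPM in saline libraries 1 to 3, but saline library 4 had 501 CPM and the call was lost with 16 libraries (edgeR adjusted p = 0.262). In this comparison Bcas1, Gpr17, Sirt2, Apod and Ndrg1 were not called (log2 -0.34, -0.31, -0.50, -0.18 and -0.054).

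The adhesion molecule Cadm4 resembled Cldn11 in its groups, at 5.77 to 7.73 CPM in young, 17.2 to 18.7 CPM in aged, 3.56 to 8.15 CPM in saline and 17.3 to 24.9 CPM in microbead nerves, with 5.56 CPM in aged library 2 and 12.6 CPM in saline library 4. Its log2 fold change was 1.41 with age (edgeR adjusted p = 1.51e-05) and 1.89 with microbeads (edgeR adjusted p = 5.29e-06, and 0.206 with 16 libraries). Myo1d was called higher in both comparisons (log2 0.88 and 0.64), but aged library 2 (26.8 CPM) lay below the young range of 30.1 to 35.4 CPM and saline library 4 (39.0 CPM) within the microbead range of 34.9 to 53.7 CPM. With 16 libraries its call held with age (edgeR adjusted p = 0.0300) and was lost with microbeads. Tppp, a tubulin-binding protein of oligodendrocytes, was called higher with microbeads (log2 0.91). Saline library 4 (39.1 CPM) lay between the kept saline range of 21.6 to 37.6 CPM and the microbead range of 41.9 to 64.7 CPM. Gamt, the creatine-synthesis enzyme in the lipid list, fell with age (log2 -1.16, edgeR adjusted p = 1.98e-06). It was at 33.3 to 35.7 CPM in young and 14.6 to 16.8 CPM in the kept aged libraries, with 25.9 CPM in aged library 2. The lineage factors Olig1 and Olig2 had log2 values of -0.76 and -1.04 with age and were not called with 14 libraries (edgeR adjusted p = 0.104 and 0.0732), Olig1 being called lower with 16.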

How the data were processed

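RNA-sequencing was carried out by the authors on pools of 4 nerve heads, with Qiagen extraction, the SMARTer Ultra Low Input kit v3, which does not mark strand, and a HiSeq instrument. The authors aligned reads to mm10 with STAR 2.3.0 and deposited whole, unnormalised counts per gene from featureCounts, whose version and annotation the sources used here do not state. The deposited comparison tables (size-factor-scaled values, folds and p-values) and a table of group averages were not used. The 9 members, the gene lists and the tests were chosen with earlier results of these data known.

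Counts were filtered (filterByExpr), normalised by TMM and tested in R 4.3.3 with edgeR 4.0.16 (robust quasi-likelihood), in 1 model of 4 groups and 14 libraries. DESeq2 1.42.0, RLE size factors, no or a stricter count filter, only the groups compared, no minimum fold, all 16 libraries, a block for the replicate number, libraries sharing a code, a loess correction (span 0.5) for gene length in each library and each library left out were alternatives. The code in the library names was 3 for young libraries and aged libraries 1 to 3, 4 for aged library 4, saline libraries and microbead libraries 1 and 2, and 5 for microbead libraries 3 and 4. What it marks is not given. No gene of the table had exons overlapping a member. The procedure was tested on simulated data. Named genes were the members, up to 4 genes per list with the smallest p in the age and microbead comparisons, and the 10 genes most like the members in log2 CPM (prior count 2), from which the text gives a selection. A few of these genes are not reported here. Lists used other symbols of the table for Cers2 (Lass2) and Myrf (Gm98). Library totals of 6213789 to 10726122 counts limit precision least for Mbp and most for Opalin, at 52 to 304 counts a library.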

Additional observations from a re-analysis of the deposited data

Results flagged for a closer look

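Cnp in aged library 3 (375 CPM) and Mog in saline library 2 (114 CPM) stood apart from the other 3 libraries of their groups, of which the nearest had 294 and 57.2 CPM. The gap to the nearest library took 0.868 and 0.861 of the range of the group, above Dixon's 95% critical value, in these 2 of 36 sets of 4 libraries, and chance gives about 1 in 20. The 2 libraries were also highest for most other members.

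The responses of Mobp to microbeads and to age differed by 1.29 on the log2 scale in a test of the difference itself (edgeR adjusted p = 0.0465). The call was lost with a replicate block (edgeR adjusted p = 0.110), without a filter on low counts (edgeR adjusted p = 0.0677) and without most single libraries. The cause was not tested.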

How the results depend on the processing

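Of the alternatives, all 16 libraries changed most. For microbeads against saline the count of called members went from 1 to 0. That of the other myelin sheath genes went from 6 to 0, and that of the other mature oligodendrocyte genes from 1 higher and 2 lower to 0. Over all genes 1365 higher and 445 lower became 0 and 0. With age, 1 transcription factor (Olig1) was called in the 16 libraries. The cause was not tested. For aged against young nerves 5 members were called with DESeq2 and with only the groups compared, and 2 to 5 with each library left out. Over all genes DESeq2 called 2144 higher and 1761 lower of 14541, and the fit of only these groups 2195 and 1637 of 14208. For microbeads against aged nerves 2 were called with only the groups compared and 1 to 2 with each library left out. Over all genes the fit of only these groups called 766 higher and 709 lower of 14072. For the difference between the responses the count was 0 without a filter on low counts, 2 with DESeq2 (Mobp and Cldn11) and 0 to 2 with each library left out. There DESeq2 called 873 higher and 393 lower of all 14541 genes, and the fit without a filter 742 and 317 of 19019. Cldn11 lost its calls with age (log2 0.61, edgeR adjusted p = 0.114) and with microbeads (log2 1.01, edgeR adjusted p = 0.206) with 16 libraries only. Its fold stayed above the minimum in both.

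Replicate numbers showed no clear pairing of the libraries. Correlations of the 18 same-numbered pairs ran from -0.23 to 0.54, and 7 exceeded 0.1. Those of differently numbered pairs from different groups ran from -0.57 to 0.52. The paper reports that microbead- and saline-injected nerves were handled in parallel. Correlations within groups this small cannot exclude a pairing by number. With the number as a replicate block, Mbp lost its call with age (log2 -0.85, edgeR adjusted p = 0.0244, the unadjusted p being just above 0.01), and 0 members differed between the responses.

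Direction changed only for differences that were never called. With 16 libraries Sox10 was at -0.017 with age and 0.18 for microbeads against aged, Mbp at 0.045 for microbeads against saline and Cldn11 at 0.10 for saline against young. Within code 4, Mag and Mog were at -0.047 and -0.076 for microbeads against saline, and Opalin at 0.018 with the length trend removed. With each library left out, microbeads against saline ranged from -0.35 to 0.15 (Cnp), -0.12 to 0.71 (Mag), -0.24 to 0.069 (Mal), -0.36 to 0.28 (Mbp), -0.14 to 0.57 (Mog), -0.49 to 0.090 (Opalin) and -0.23 to 0.19 (Sox10). Saline against young ranged from -0.30 to 0.20 (Cnp), -0.23 to 0.020 (Mal), -0.53 to 0.10 (Mbp), -0.43 to 0.029 (Mobp), -0.63 to 0.077 (Mog) and -0.025 to 0.40 (Sox10), and Sox10 for microbeads against aged from -0.14 to 0.032.

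Within code 3, with aged libraries 1 and 3 against young libraries 1 to 4, age gave -1.51 for Mobp, -0.79 for Mbp and 0.90 for Cldn11. All 3 were called, where 1882 of 14443 genes were called higher and 1423 lower. Within code 4, with microbead libraries 1 and 2 against saline libraries 1 to 3, microbeads gave 1.35 for Cldn11. It was called, where 1045 of 14142 genes were called higher and 340 lower. Within-code values could not be had for the other comparisons, which share no code or only that of aged library 4, and a fit of only the groups compared does not exist for the difference between the responses, which uses all 4. Over all 16 libraries, the share of counts of the members without Mbp was 0.159% in young, 0.106% in aged, 0.138% in saline and 0.145% in microbead libraries, and over the kept libraries 0.111% in aged and 0.146% in saline. Of the 10 most similar genes 4 were shared with 16 libraries. With the length trend removed, Mbp was at -1.20 with age.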
